A study of Malus domestica with 12 samples.

Results

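Superficial scald is a browning of apple peel that appears after long cold storage, and the peel compared here was sampled at harvest, before any storage. The comparison set the peel of 2015-P31, a fruit batch with high scald incidence, against the peel of 2014-P36, a batch with low scald incidence. It comprised 4 of the 12 one-channel samples of the series, chosen by their labels: 2015-P31 replicates a and b and 2014-P36 replicates a and b. All were wild-type Granny Smith apples picked at early physiological maturity at an experimental station in France, and each RNA came from the peel of 20 fruit with both the sun-exposed and the shaded side. P31 and P36 are orchard plots, and the harvest years were 2015 and 2014. Plots and years follow the sample labels and the array methods; the description of plant material in the study pairs these plots with the years the other way round, so the plot behind each sample is not settled. Replicates a and b were the same 2 RNA samples hybridised on 2 Agilent AryANE_v2 arrays of one slide with the dyes swapped. On array a, 2015-P31 carried Cy3 and 2014-P36 carried Cy5, and on array b the dyes were exchanged. The design therefore held 1 peel sample per group and gave no p-value for the difference between them. Harvest year, orchard and scald class cannot be told apart in these samples. The low scald class is relative to the high scald batches and does not mean fruit free of scald. The study reports scald after storage in a sizeable part of the early-picked fruit of the low scald year as well.

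Heat shock proteins are molecular chaperones that hold or refold proteins damaged by heat and other stress. The large families act with ATP: HSP100 proteins pull proteins out of aggregates, HSP90 and HSP70 fold and mature client proteins, and HSP60 forms a folding chamber in mitochondria and chloroplasts. Small HSPs bind unfolding proteins and keep them soluble until they are refolded. In plants, heat stress transcription factors (HSFs) switch on the genes of these chaperones, and the same system also responds to strong light and oxidative stress.

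The series held 2 other comparisons of high with low scald peel, each also on 2 dye-swapped arrays. One set 2015-P24 against 2014-P24 and is called the P24 pair below. The other set 2017-P31b against 2014-P24 and is called the 2017 pair. Both lay on another slide than the P31/P36 arrays and shared the 2014-P24 sample.

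Each value is the log2 ratio of 2015-P31 over 2014-P36 within an array, and its error, given after ±, is the distance of either array from their mean, which covers dye and array but not fruit. Levels are log2 single-channel intensities after normalisation. A probe was taken as past the filter when both arrays measured it and it lay well above background in both channels of at least 1 of the 2 peel samples. Among 133709 probes, 18071 were past the filter and 14117 were well above background in all 4 channels. In the 2015-P31 peel 29.6% of the probes were well above background in Cy3 and 10.9% in Cy5, and in the 2014-P36 peel 29.5% were in Cy3 and 13.2% in Cy5. The Cy5 channels of this slide thus held fewer measurable probes in both samples. The 2 arrays correlated by a Pearson r of 0.397 over the probes past the filter, where 56.6% had the same sign. Over the probes well above background in all 4 channels r was 0.322 and 54.3% had the same sign. Over the 92 transcripts of the heat shock and abiotic stress lists r was 0.824 and 95.7% had the same sign. The study had chosen these transcripts partly on these arrays, so part of their agreement was set in advance. These correlations run across probes that share arrays and RNA and are given as descriptions.

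Markers of peel could be read only from the transcripts that the study had selected. Of 6 probes found by words for cuticle and wax, 1 of them annotated as the coactivator MBF1C, 6 were well above background in Cy3 and 4 in Cy5 in the 2015-P31 peel, and 6 and 6 in the 2014-P36 peel. Of 7 photosynthesis probes, 6 were in both dyes in the 2015-P31 peel, and 7 in Cy3 and 6 in Cy5 in the 2014-P36 peel. The median log2 ratio of the cuticle probes was -0.59, and that of the photosynthesis probes was -0.32. No probe matched the words for seed storage, and 1 matched those for pollen or anther, at -0.58. In bulk peel, fewer cells of a type and less RNA per cell cannot be told apart, and the part of tissue makeup in the ratios below was not tested.

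A probe was counted as lower or higher past the fold when it passed the filter, had the same sign on both arrays and a mean log2 ratio of at least 1 in size, a 2-fold difference. In the 2015-P31 peel 761 probes were lower, 4.21% of the probes past the filter, and 75 were higher, 0.415%. Of the 761, 552 were well above background in all 4 channels, and in the other 209 the Cy5 channel of 2015-P31 was not. A ratio of at least 1 in size on each array was found for 472 of the 761 and 41 of the 75. Probes for the sense strand of predicted genes, whose identifiers begin with MDP, held 292 of the lower ones, 2.07% of 14113. Probes whose identifiers begin with MDE, a group not described in the sources used here, held 442.

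**Figure D1:**
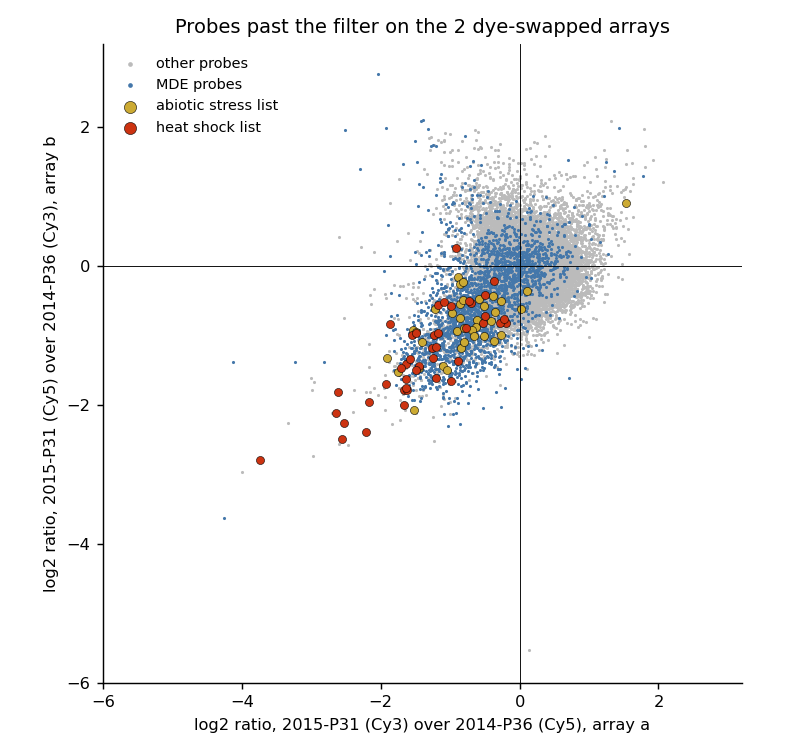
Log2 ratio of 2015-P31 over 2014-P36 on array a (horizontal) and on array b (vertical), one point per probe past the filter. Heat shock transcripts (red) lie along the lower left diagonal, abiotic stress transcripts (yellow) nearer to 0, and many MDE probes (blue) between -2 and 0 on both arrays.

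The list of heat shock transcripts held 48 members in 6 families, which the study had chosen partly on these arrays because they were lower in high scald peel, so their direction is not independent evidence. In the 2015-P31 peel 29 of the 48 were lower past the fold and 0 were higher, against 4.21% lower among all probes past the filter. With all 4 channels required to be well above background 16 were lower past the fold, and the other members passed the filter through the 2014-P36 channels, where they are high. The median log2 ratio was -1.22, with -1.22 on array a and -1.10 on array b, while the median of all probes past the filter was 0.01. Both arrays lay below 0 for 47 members, and 1 had arrays of opposite sign. Past the filter were 43 members, 25 of them well above background in all 4 channels. No member had a saturated spot.

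HSP100 was the family with the most negative median, -1.93 over 4 transcripts, and all 4 were lower past the fold. HSP101 (MD06G1201600), the disaggregase needed for acquired heat tolerance in Arabidopsis, had log2 levels of 9.46 in Cy3 and 10.19 in Cy5 in the 2015-P31 peel, against 13.19 in Cy5 and 12.99 in Cy3 in the 2014-P36 peel. Both 2015-P31 channels lay below both 2014-P36 channels, and the ratio was -3.73 on array a and -2.80 on array b (-3.27 ± 0.47), a level 9.62 times higher in the 2014-P36 peel. A second probe placed in the same gene gave only -0.65, a difference of 2.62 between probes that share a gene name. The other HSP101 transcripts were MD14G1211000 at -2.06 ± 0.11, MD14G1210600 at -1.81 ± 0.11 and MD06G1201200 at -1.71 ± 0.08. These 3 differed between arrays by far less than HSP101 of MD06G1201600.

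HSP90 had a median of -1.76 over 4 transcripts, of which 3 were lower past the fold. HSP90.1 of MD01G1208700, the heat-inducible cytosolic form, had levels of 7.21 in Cy3 and 8.06 in Cy5 in the 2015-P31 peel, against 9.42 in Cy5 and 10.45 in Cy3 in the 2014-P36 peel. Its ratio was -2.21 on array a and -2.39 on array b. A related transcript, MD07G1279200, had 8.95 and 9.40 in the 2015-P31 peel, against 11.48 and 11.65 in the 2014-P36 peel, with ratios of -2.53 and -2.25. In each of these transcripts both 2015-P31 channels lay below both 2014-P36 channels, which are dye readings of a single RNA sample per peel. HSP81-4 (MD11G1037400), a further member with levels of 12.66 and 12.70 in the 2015-P31 peel and 13.74 and 13.22 in the 2014-P36 peel, was the family member closest to 0 at -0.80 ± 0.29 and did not reach the fold.

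Small HSPs and their listed partners formed the largest family, with 20 transcripts, a median of -1.33 and 14 lower past the fold. HSP21 (MD13G1108500), the chloroplast small HSP, had levels of 8.16 in Cy3 and 8.47 in Cy5 in the 2015-P31 peel, against 10.71 in Cy5 and 10.96 in Cy3 in the 2014-P36 peel. Its ratios of -2.55 and -2.49 were nearly the same on both arrays. HSP17.8 (MD05G1240300), a cytosolic class I protein, had 6.49 and 7.15 in the 2015-P31 peel, against 9.14 and 9.27 in the 2014-P36 peel, a ratio of -2.38 ± 0.27. It was well above background in only 1 of the 2 channels of 2015-P31, so its low level there was close to the limit of the array.

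The class II proteins are also cytosolic. HSP17.6-CII of MD08G1068000 had levels of 12.39 and 12.52 in the 2015-P31 peel, against 15.01 and 14.33 in the 2014-P36 peel, with ratios of -2.62 and -1.81. HSP17.6-CII of MD15G1053800 had 11.73 and 11.87 in the 2015-P31 peel, against 13.37 and 13.62 in the 2014-P36 peel, with -1.64 and -1.76. In both transcripts the 2015-P31 channels lay below the 2014-P36 channels. The mitochondrial HSP23.6 (MD06G1060300) was at -1.32 ± 0.33. HSP40 (MD10G1289200), a DNAJ co-chaperone that hands substrates to HSP70, was at -1.84 ± 0.17.

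The remaining small HSPs varied more between transcripts and arrays. MD07G1210400, a class I protein that the study's table likens to HSP17.6C and its supplementary annotation to HSP18.2, had levels of 12.32 in Cy3 and 12.89 in Cy5 in the 2015-P31 peel, against 13.23 in Cy5 and 12.63 in Cy3 in the 2014-P36 peel. Its channels overlapped between the peels, and the ratio was -0.91 on array a and 0.26 on array b. MD01G1144400, annotated in the same ways, was at -1.86 and -0.84. Among class I proteins, HSP17.6 of MD07G1210800 had levels of 9.41 and 9.29 in the 2015-P31 peel, against 11.11 and 10.75 in the 2014-P36 peel, a ratio of -1.58 ± 0.12. HSP17.6 of MD11G1089400 was at -0.87 ± 0.31, with -1.18 on array a and -0.56 on array b. The class III protein HSP17.4 (MD17G1151000) was at -1.64 and -1.62, a closer match between arrays. HSP22 (MD08G1249100), a protein of the endomembrane system, was at -0.19 and -0.82.

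HSP60 and HSP70 transcripts had the median closest to 0 of the 6 families, -0.69 over 9 members, and 3 were lower past the fold. HSP70B (MD15G1150500) had levels of 6.79 in Cy3 and 7.55 in Cy5 in the 2015-P31 peel, against 8.43 in Cy5 and 8.96 in Cy3 in the 2014-P36 peel, a ratio of -1.53 ± 0.11. HSC70-2 (MD07G1196600) was at -1.27 ± 0.28 and HSP70 of MD07G1197200 at -1.18 ± 0.02. The 2 HSP60 transcripts, MD10G1170700 and MD05G1182500, were at -0.83 ± 0.06 and -0.49 ± 0.27 and did not reach the fold. All 9 had both arrays below 0.

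Among 6 other chaperones 3 were lower past the fold. BAG5 (MD16G1124100), of a family of HSP70 co-chaperones, was not well above background in either channel of 2015-P31. Its measured levels there were 6.01 and 6.73, against 7.68 and 8.51 in the 2014-P36 peel, 3.30-fold lower. Raising each dim level to at least the dimmest signal called well above background in its channel left this fold unchanged. The fold is therefore an estimate from dim channels and not a bound. The 2 Aha1-domain proteins, activators of the HSP90 ATPase in yeast, were at -1.41 ± 0.20 (MD14G1054700) and -1.28 ± 0.04 (MD12G1055300). The 10 kDa chaperonin (MD13G1024100), the lid of the HSP60 chamber, was at -0.29 ± 0.08.

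The 5 HSF transcripts were dim, and only 2 passed the filter, both lower past the fold. HsfA2 (MD15G1057700), a heat-induced activator that sustains the response in Arabidopsis, had levels of 7.00 in Cy3 and 7.58 in Cy5 in the 2015-P31 peel, against 8.45 in Cy5 and 9.01 in Cy3 in the 2014-P36 peel, with ratios of -1.45 and -1.43. HSFA6B (MD03G1258300) was not well above background in the 2015-P31 peel, where its dim readings were 2.10-fold lower. A second HsfA2 transcript (MD08G1064100) was at -0.80 and -0.79 without passing the filter. HSFB2A (MD01G1198700), a class B factor, was at -0.24 and -0.10.

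**Figure D2:**
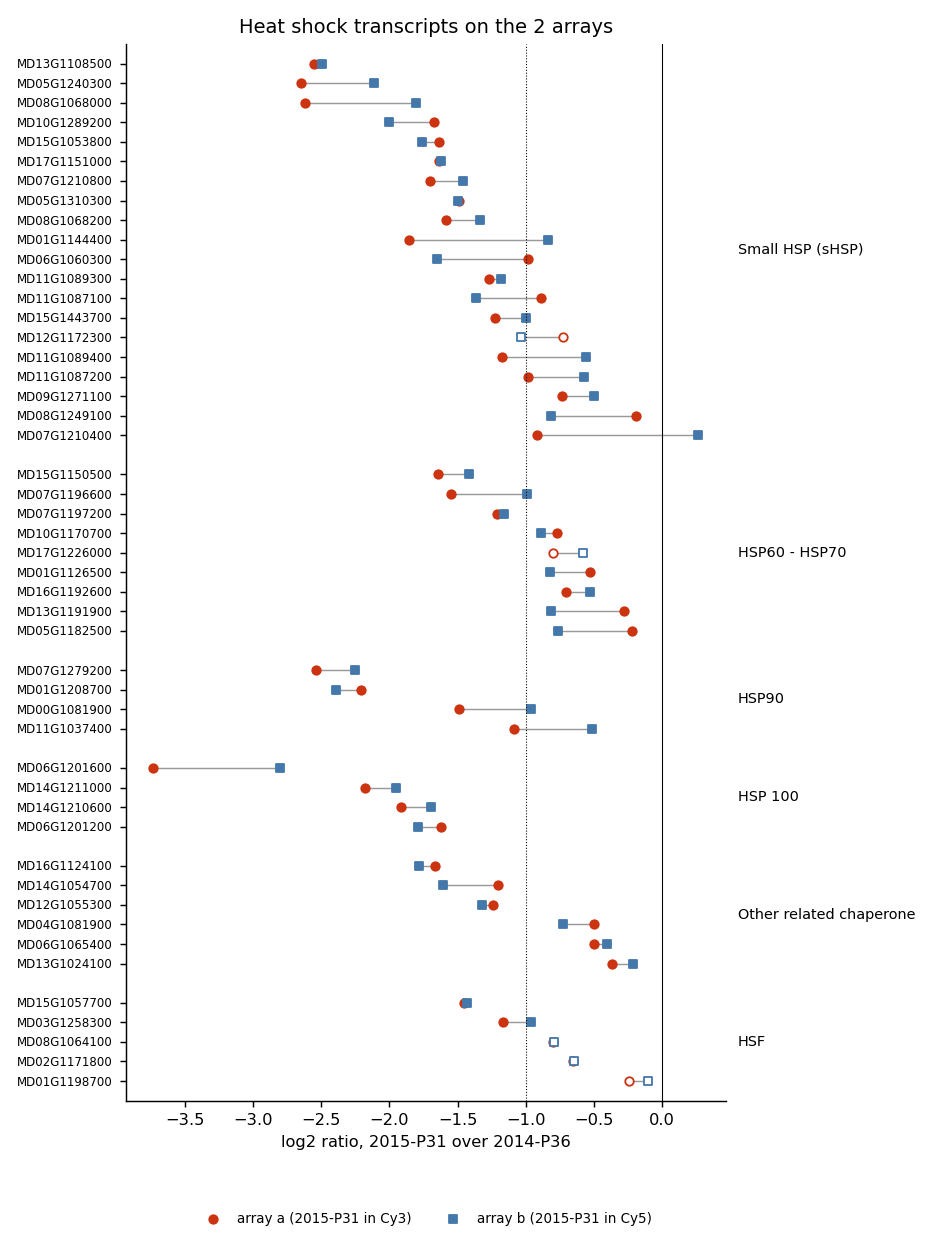
Log2 ratio of 2015-P31 over 2014-P36 (horizontal) for the 48 heat shock transcripts, grouped by family, on array a (circles) and array b (squares). Filled symbols mark transcripts past the filter, the dotted line marks a 2-fold lower level, and 1 transcript, MD07G1210400, has its arrays on both sides of 0.

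Antisense probes existed for all 48 heat shock transcripts, and 2 of them passed the filter with 0 lower past the fold, so the antisense strand was too dim to be compared for the other members. One antisense probe of a further transcript placed in the HSFA6B gene MD03G1258300 was at -1.23. This is 2.35-fold lower in 2015-P31, where neither channel was well above background. Across 14 genes of the lists with at least 2 probes, the probes of a gene differed by a median of 0.49 on the log2 scale, and all lay below 0. Probes were placed in genes through the study's list, where 809 of 810 sense transcripts lay below 0. The shared direction was thus largely set by that selection.

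Abiotic stress transcripts outside the chaperone families were also mostly below 0. The list held 44 members, also chosen by the study with these arrays, and their direction is not independent evidence. In the 2015-P31 peel 10 were lower past the fold and 1 was higher, where 4.21% of all probes past the filter were lower and 0.415% higher. The lower count was 6 with all 4 channels required to be well above background and 18 with plain background subtraction. The list had a median log2 ratio of -0.70, and both arrays lay below 0 for 39, above 0 for 2 and on opposite sides for 3. Past the filter were 37, and 23 were well above background in all 4 channels.

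Among 8 transcripts that respond to several stimuli, 4 were lower past the fold. SAG21 (MD03G1289900), a mitochondrial late embryogenesis abundant protein induced by senescence and oxidants, had levels of 11.64 in Cy3 and 11.85 in Cy5 in the 2015-P31 peel, against 13.54 in Cy5 and 13.18 in Cy3 in the 2014-P36 peel, a ratio of -1.61 ± 0.29. RHL41 (MD03G1099300), the zinc-finger regulator also known as ZAT12, was at -1.46 and -1.47. GOLS1 (MD17G1280400), a galactinol synthase that makes the precursor of raffinose sugars, was at -1.27 ± 0.23. ELIP1 (MD14G1150400), an early light-induced protein that binds chlorophyll under excess light, was at -1.22 ± 0.31. The 4 other members did not reach the fold. BCB (MD17G1211100), a blue copper-binding protein, was at -0.92 ± 0.30, and LOS2 (MD01G1185500), an enolase, at -0.95 ± 0.15. COR47 (MD15G1253900), a dehydrin, of a family that protects cells as they lose water, had levels of 13.26 and 13.42 in the 2015-P31 peel, against 14.12 and 13.67 in the 2014-P36 peel, a ratio of -0.55 ± 0.30. EGY3 (MD10G1110200), a chloroplast membrane protein of the metalloprotease type, had arrays of opposite sign, 0.11 on array a and -0.35 on array b.

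The cold-responsive group had 3 members, and 1 was lower past the fold. This transcript, MD09G1043700, an AAA-type ATPase, had levels of 9.40 and 9.53 in the 2015-P31 peel, against 10.93 and 11.60 in the 2014-P36 peel, with ratios of -1.53 and -2.08. It had the most negative mean of the abiotic stress list, -1.80. FER1 (MD04G1164500), the iron-storage protein ferritin, was at -0.63 ± 0.36, where the arrays differed by more than the mean.

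Of 7 heat-responsive transcripts 2 were lower past the fold. MBF1C of MD02G1050200, a coactivator that acts in heat tolerance, had a ratio of -1.22 ± 0.28, and neither 2015-P31 channel reached a 2014-P36 channel. A second MBF1C transcript (MD15G1187400) was at 0.02 on array a and -0.61 on array b. The unnamed heat-responsive transcript MD09G1263000 was at -1.27 ± 0.17. MD05G1166200, which did not pass the filter, was at 0.26 on array a and -0.84 on array b.

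None of the 9 light-responsive transcripts reached the fold, although all 9 had both arrays below 0, with a median of -0.53. HY5 (MD08G1147100), a central activator of light signalling, was at -0.76 ± 0.25. MD03G1297100, named MYB12 in the study's table and MYB111 in its supplementary annotation, both regulators of flavonol synthesis, was at -0.80 ± 0.06. PAL1 (MD12G1116700), the entry enzyme of the phenylpropanoid pathway, was at -0.72 ± 0.35, with -0.38 on array a and -1.07 on array b.

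Among 17 transcripts of oxidative stress and the processing of reactive oxygen, 3 were lower past the fold and 1 was higher. A glutaredoxin (MD06G1110300), of a family that reduces disulfides with glutathione, had levels of 10.72 and 10.64 in the 2015-P31 peel, against 12.46 and 12.16 in the 2014-P36 peel, a ratio of -1.63 ± 0.12. MD05G1309500, a thioredoxin superfamily protein in the study's table and a glutaredoxin in its supplementary annotation, was at -1.01 ± 0.17, just past the fold. MD05G1211000, a glutathione S-transferase of the tau class named GSTU19 in the study's table and GSTU21 in its supplementary annotation, was at -1.25 ± 0.16. The 3 other GSTU19 transcripts lay at -0.92 ± 0.02 (MD05G1211100), -0.60 ± 0.18 (MD05G1210700) and -0.40 ± 0.02 (MD05G1210000), and the 2 GSTU8 transcripts at -0.85 ± 0.05 (MD04G1139400) and -0.83 ± 0.18 (MD04G1139500). All 5 had both arrays below 0 without reaching the fold. The 2 cytochrome c transcripts, carriers of the respiratory chain, were at -0.65 ± 0.16 (MD15G1395600) and -0.53 ± 0.37 (MD08G1213100). The exception was MD17G1039200, listed as similar to GASA14, a gibberellin-regulated peptide, with 9.65 and 9.30 in the 2015-P31 peel, against 8.12 and 8.38 in the 2014-P36 peel, and a ratio of 1.22 ± 0.31. A Barwin-related transcript (MD02G1013800) was at 0.88 ± 0.05 but did not pass the filter.

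**Figure D3:**
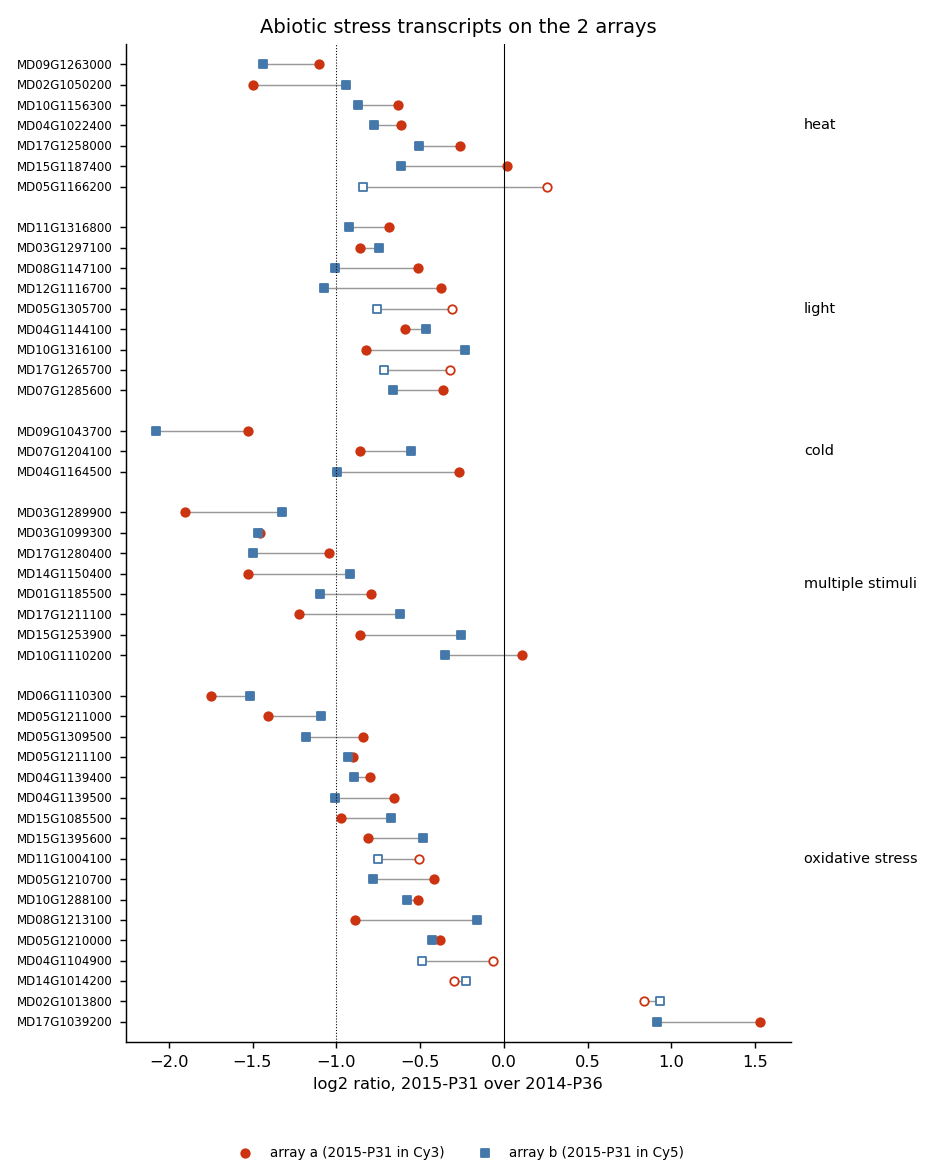
Log2 ratio of 2015-P31 over 2014-P36 (horizontal) for the 44 abiotic stress transcripts, grouped by the stimulus they respond to, on array a (circles) and array b (squares), with filled symbols for transcripts past the filter. Most lie between -1 and 0, and 2 oxidative stress transcripts lie above 0 on both arrays.

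The RT-qPCR panel comprised 9 transcripts, read here from their array probes, and 5 of them are heat shock transcripts described above. The other 4 did not share a direction. IMS1 (MD05G1155100), annotated for isopropylmalate synthase of the leucine pathway, had array levels of 9.81 in Cy3 and 9.23 in Cy5 in the 2015-P31 peel, against 7.90 in Cy5 and 7.70 in Cy3 in the 2014-P36 peel, a ratio of 1.72 ± 0.19. EXGT (MD16G1145200), a xyloglucan endotransglucosylase of the cell wall, had 13.91 and 14.06 in the 2015-P31 peel, against 13.18 and 12.78 in the 2014-P36 peel, and lay just past the fold with 1.00 ± 0.28. PPO (MD10G1299400), a polyphenol oxidase that turns phenolics into brown quinones, was at -1.10 ± 0.28. LOX (MD09G1069500), a lipoxygenase that oxidises fatty acids, was at 0.37 ± 0.17.

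Other annotated transcripts came from the held part of the study's list of differential transcripts, 810 on the sense strand, almost all selected as lower in high scald peel. Of these 98 were lower past the fold and 0 higher, with a median of -0.43. Receptor kinases and resistance-type proteins, which act at the cell surface or inside the cell in the recognition of pathogens, numbered 45 with 7 lower past the fold. The receptor-like kinase MD02G1249300 had levels of 7.75 and 8.01 in the 2015-P31 peel, against 9.14 and 9.80 in the 2014-P36 peel, a ratio of -1.59. A second receptor-like kinase, MD02G1250000, had 9.32 and 9.44 in the 2015-P31 peel, against 10.87 and 10.87 in the 2014-P36 peel, a ratio of -1.49. Glutathione S-transferases had 1 of 17 lower past the fold, transcription factors 1 of 20 and cell wall transcripts 1 of 19. The transcription factor was RAP2.4 (MD01G1027200), of the ERF type, at -1.09, and the cell wall transcript was XTR7 at -1.06. The share was 4.21% over all probes past the filter and 2.07% over its sense MDP probes. In this selected list it was 98 of 810. These counts, and the 7 of 45 receptor kinases, are not read as results about the groups. Calcium- or calmodulin-binding proteins, a mixed list that includes BAG6, CPN20 and MLO8, had 2 of 8. None of 20 allergen, chitinase and thaumatin transcripts, 17 of lipid metabolism, 11 of ethylene or 10 ribosomal protein transcripts was lower past the fold. The same shares of 4.21% and 2.07%, and the 98 of 810, stand beside these counts.

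Outside the lists, 2 annotated transcripts stood among the 15 lowest probes with all 4 channels well above background. A SERF-like protein (MD05G1174200) had levels of 8.88 and 8.59 in the 2015-P31 peel, against 10.71 and 10.87 in the 2014-P36 peel, a ratio of -2.05. An antisense probe of peroxidase 42 (MD05G1345800) had 10.66 and 11.23 in the 2015-P31 peel, against 14.66 and 14.19 in the 2014-P36 peel, with ratios of -4.00 and -2.97. The lowest probe with all 4 channels well above background, MDE0100036383, was at -4.26 and -3.63, and was as low in the P24 pair (-3.89) and the 2017 pair (-3.87). The unnamed MDP0000279459 was low on both strands, at -2.38 for the sense and -2.79 for the antisense probe, while its sense probe was at 0.03 in the P24 pair and 1.07 in the 2017 pair. None of the 15 highest probes with all 4 channels well above background had a name, and IMS1, at 1.72, was not ranked among them because 1 of its 2014-P36 channels was dim. The highest, MDP0000552120, had 11.51 and 11.31 in the 2015-P31 peel, against 9.72 and 9.33 in the 2014-P36 peel, a ratio of 1.88.

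The heat shock list lay closer to 0 in the P31/P36 pair than in the other pairs. Its median log2 ratio was -1.22 in the P31/P36 pair, -2.70 in the P24 pair and -2.82 in the 2017 pair, and P31/P36 minus the mean of the others had a median of 1.35. This difference was above 0 for 48 of 48 members, against 9313 of 18071 probes past the filter. It was above 0 for 617 of the 810 annotated sense transcripts of the study's list. The heat shock list was chosen on the 3 pairs together, so the other pairs shaped that choice. In the limma fit of the 3 ratios, no probe was called after Benjamini-Hochberg adjustment over 133703 probes (0%, threshold 0.05). The lowest adjusted p of this fit was 0.437. Taking the 6 arrays as separate ratios called 1213 probes, 25 of the heat shock list among them, and this count treats dye swaps of one RNA as independent. The fit had 1 residual degree of freedom, the other 2 pairs shared a sample, and slide and pair cannot be told apart.

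For small HSPs the median was -1.33 in the P31/P36 pair, against -3.20 in the P24 pair and -3.17 in the 2017 pair. HSP22 was at -0.50 in the P31/P36 pair, against -4.41 and -3.71 in the other pairs, a difference of 3.56 (SE 0.37, limma adjusted p = 0.449). For HSP100 the medians were -1.93, -2.63 and -3.13 in the same order. HSP101 of MD06G1201600 was at -3.27 in the P31/P36 pair, against -3.36 and -4.07, a difference of 0.45 (SE 0.37, limma adjusted p = 0.873). HSP81-4 differed least, by 0.36 (SE 0.45, limma adjusted p = 0.912).

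**Figure D4:**
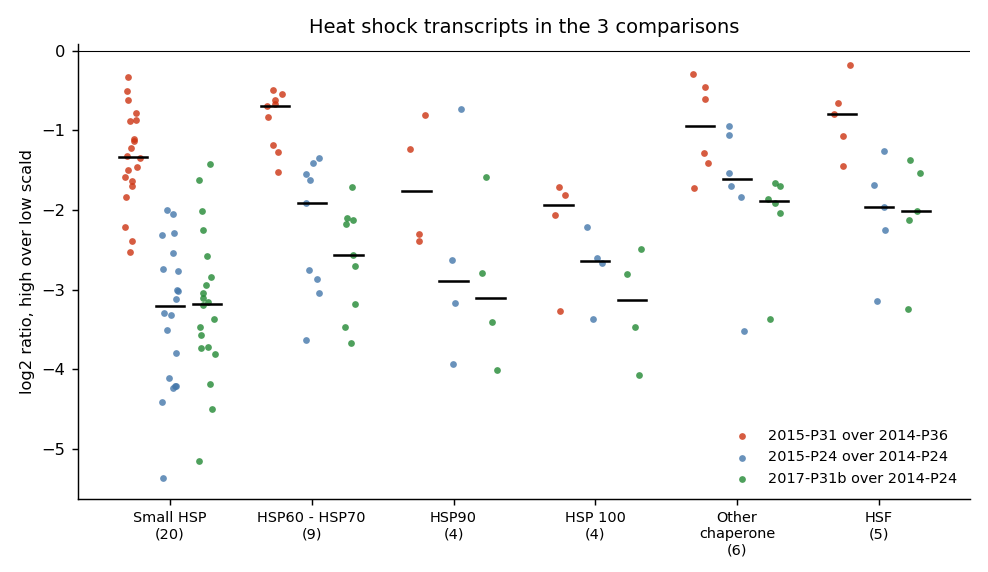
Log2 ratio between high and low scald peel (vertical) for the heat shock transcripts of each family in the P31/P36 pair (red), the P24 pair (blue) and the 2017 pair (green), one point per transcript with the number of transcripts under each family and a bar at the median. The medians of the small HSPs are -1.33, -3.20 and -3.17, and those of HSP100 lie closer together.

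The abiotic stress list had a median of -0.70 in the P31/P36 pair, -1.45 in the P24 pair and -1.58 in the 2017 pair. In the P31/P36 pair 39 of 44 members lay above the mean of the others, beside 9313 of 18071 probes past the filter. Some members went the other way. The AAA-type ATPase was at -1.80 in the P31/P36 pair, against -1.40 and -0.21 in the other pairs (mean of the others -0.81, SE of the difference 0.63, limma adjusted p = 0.846). SAG21 was at -1.61, against -1.45 and -0.34, and RHL41 was at -1.46, against -1.26 and -0.72. The receptor-like kinases MD02G1249300 and MD02G1250000 were at -1.59 and -1.49 in the P31/P36 pair, against -0.84 and -0.61 in the P24 pair and -0.28 and -0.97 in the 2017 pair. None of these differences was called by limma. ELIP1 was at -1.22, against -2.01 in the P24 pair and -5.11 in the 2017 pair, so that the other pairs were far apart from each other.

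Of the 292 sense MDP probes that were lower past the fold, 125 were also at -1 or below in the P24 pair, 42.8% of the P31/P36 list and 44.0% of the 284 in the P24 list. In the 2017 pair 62 were, 21.2% of the P31/P36 list and 16.0% of the 388 in the 2017 list. Of the 66 higher ones, 29 were also at 1 or above in the P24 pair, 43.9% of the P31/P36 list and 21.2% of the 137 in the P24 list. In the 2017 pair 13 were, 19.7% of the P31/P36 list and 5.65% of the 230 in the 2017 list. The P24 and 2017 lists were counted only among the 14113 sense MDP probes past the P31/P36 filter. Beside these overlaps stand 284 and 388 of the 14113 for lower probes, and 137 and 230 for higher ones. Over all probe types, 12 of the 75 higher probes were at -1 or below in the 2017 pair, beside 434 of the 18071 probes past the filter.

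MDE probes were centred below 0 and MDP probes near 0 in this pair. Past the filter were 2365 MDE probes, of which 442 were lower past the fold (18.7%) and 6 higher, and the 15696 MDP probes held 319 lower (2.03%). The median log2 ratio of the MDE probes was -0.52 in the P31/P36 pair, with -0.55 on array a and -0.49 on array b, so it kept its sign through the dye swap. The same probes had medians of 0.21 in the P24 pair and 0.40 in the 2017 pair, and MDP probes had 0.04, -0.02 and -0.02 in the 3 pairs. The shift was present on both strands, with -0.45 for sense and -0.60 for antisense probes, and in most ranges of level. It was -0.51 at log2 levels of 6 to 8, -0.80 at 10 to 12 and -0.02 at 14 to 16. Over the 1533 MDE probes well above background in all 12 channels the medians were -0.43 in the P31/P36 pair, 0.26 in the P24 pair and 0.43 in the 2017 pair. Over all 14844 MDE probes, dim ones included, the P31/P36 median was -0.03. With plain background subtraction 862 MDE probes were lower past the fold in place of 442.

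Among 373 MDE loci with both strands past the filter, 13 had both strands lower past the fold, 109 only the sense and 75 only the antisense strand. The sense and antisense ratios correlated by 0.339 across these loci and by 0.542 across 378 MDP loci, which share arrays and RNA. Without the MDE probes, 319 probes were lower past the fold in place of 761. The part of slide in this shift cannot be told apart from that of the peel samples.

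**Figure D5:**
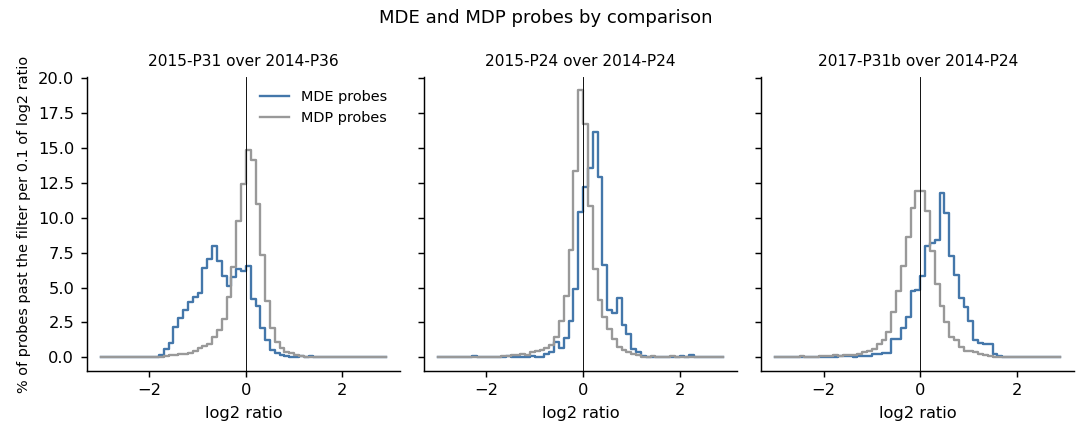
Distribution of the log2 ratios, high scald peel over low (horizontal, from -3 to 3) for MDE probes (blue) and MDP probes (grey) past the filter, as percent of each probe type per bin (vertical), in the P31/P36 pair, the P24 pair and the 2017 pair. The MDE distribution lies left of 0 in the P31/P36 pair (median -0.52) and right of 0 in the other pairs (0.21 and 0.40).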

How the data were processed

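The authors labelled peel RNA with Cy3 and Cy5, hybridised it to Agilent arrays and deposited spot and local background intensities as extracted by the scanner software, together with a table of log2 values after their lowess. The background was corrected here with normexp (offset 50) on the processed signal of the scanner software and the median local background. Loess (span 0.3, 4 iterations) was run within each array in limma 3.58.1 under R 4.3.3. Control and outlier spots had weight 0, and saturated spots were kept. Spots of a probe and the 2 arrays of a pair were averaged. Single-channel levels followed Aquantile. A probe was well above background when its signal minus local background was over 2.6 times the SD of the background pixels. The number of arrays limits the precision. The pairs were compared with lmFit and eBayes over the 3 pair ratios, as the P31/P36 ratio minus the mean of the others, with Benjamini-Hochberg adjustment over 133703 probes. The calculation was tested on simulated data.

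Transcripts were named through the study's tables and the held 820 rows of its list of differential transcripts. Its columns of fold changes and p-values were not used. Named were the transcripts of its tables by family, the 15 probes per direction with the largest ratio and the 10 with the largest difference from the other pairs, among probes well above background in all channels compared, and the leading members of annotation lists. The members and lists were chosen with earlier results of these data known. No probe sequence was used here. Alternatives changed the background correction, normalisation, filter, outlier and saturated spots, threshold, source of values and model.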

Additional observations from a re-analysis of the deposited data

Results flagged for a closer look

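Of 136 probes examined, only the 90 well above background in all 12 channels could be flagged. The median of the MDE probes was examined besides. For 9 probes and this median, 10 values, both arrays of the P31/P36 pair moved one way and all arrays of the other pairs the other way. The difference itself was not tested by this criterion. The 9 single probes among the 10 had been named because they differed most from the other pairs, so that their opposite direction restates this choice and is no further evidence. No transcript of the heat shock, abiotic stress or RT-qPCR lists was among them. The median of the MDE probes was -0.52 in the P31/P36 pair, against above 0 in the other pairs. Single MDE probes lay at -1.74, -1.68, -1.42 and -1.14 in the P31/P36 pair, and 1 lay at 0.47. Unnamed MDP probes lay at 0.19, 0.55 and 1.03. MDP0000273257 was the most distant, at 1.61 in the P31/P36 pair, against -1.39 in the P24 pair and -2.44 in the 2017 pair.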

How the results depend on the processing

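The direction of the medians of both lists held under each alternative run, and 1337 of 1341 values of 122 named probes kept their sign. The alternatives of the filter could not change these values, and the run without the array block averaged the same ratios. Some of the probes were also named for sharing a sign on both arrays, so part of this agreement was set in advance. The count of probes lower past the fold (761) was 1504 with plain background subtraction, 472 with the fold required on each array, 131 at a mean log2 ratio of 1.5 and 319 without the MDE probes, an alternative chosen after seeing the data. It was 865 to 979 from single arrays. The count of higher probes (75) was 211 with subtraction, 21 with median centring, 41 on each array, 11 at 1.5 and 233 to 324 from single arrays. limma on the 2 arrays, which measures technical spread only, called 0 lower and 0 higher, with 8620 probes at an unadjusted p below 0.05 and a lowest adjusted p of 0.0836. The heat shock median was -1.77 with subtraction, -1.44 with median centring and -1.22 to -1.10 from single arrays, and the abiotic stress median was -0.99 and -0.84 with the first 2. Median centring moved the median of all probes past the filter to -0.11.

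The heat shock median of the P31/P36 pair minus the other pairs (1.35) was 1.42 with subtraction, 1.52 with no background correction, 1.501 in the authors' log2 table, 1.13 with median centring and 1.45 against the 2017 pair alone. In place of 0 probes called, 6 separate arrays gave 1213 and the pair as a random block 2933. The random-block fit estimated a correlation of -0.341 between the arrays of a pair. It therefore did not allow for dye swaps sharing the same RNA. Shallow Cy5 signal on this slide limits dim probes. Of these, 22 past the filter, 10 of them past the fold, were dim in both channels of a peel sample. Their ratios are estimates from dim readings. The MDE median (-0.52) was -0.70 with subtraction, -0.66 with median centring, -0.42 with all 4 channels well above background and -0.03 with no filter on dim probes. The replicate letters pair samples by array, so the array is a block by construction. Without this block there were 764 lower and 75 higher probes, a heat shock median of -1.22 and a difference of 1.35. That run averaged the same array ratios and dropped only the rule of the same sign on both arrays. Its medians were therefore set in advance. The cause of these changes was not tested.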
